A study of Mus musculus with 12 samples.

Results

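The genes described here are 50 mouse genes of DNA replication and S-phase repair, chosen by name: a gene was a member if its symbol was on the list and had a row in both deposited count tables. The list was chosen with earlier results of these data known. All 50 were found among the 24421 genes of the tables, and all 50 were among the 12164 genes that passed the filter on low counts. They were measured by polyA RNA sequencing in bone marrow-derived macrophages, which are primary cells grown from marrow progenitors in culture; the donors were C57BL/6J males, 8 weeks of age. The 12 libraries formed 4 groups of 3: cells given an siRNA against Ehd1 (siEhd1) and treated with lipopolysaccharide (LPS, labelled M1), cells given a control siRNA (siControl) and treated with LPS, cells given siEhd1 without LPS (labelled M0 and called resting here), and cells given siControl without LPS. LPS is a component of the outer membrane of Gram-negative bacteria that activates macrophages through Toll-like receptor signalling. The study asked what EHD1, an ATPase of endocytic recycling, does in macrophages, and the comparisons below ask how the replication genes stood with and without the siRNA in each state and with and without LPS under each siRNA.

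DNA replication starts at origins that are licensed before S phase, when the origin recognition complex together with CDC6 and CDT1 loads the MCM helicase, which at first is inactive. The kinases DBF4-CDC7 and CDK2 then let CDC45 and the GINS complex join the helicase, and primase, the DNA polymerases, the PCNA clamp and its loader copy the strands while RPA covers single-stranded DNA. Many of these genes are transcribed together at the boundary of G1 and S phase by E2F transcription factors, so their RNA is low in cells that have left the cell cycle and high in cycling ones. Macrophages grown from marrow divide in response to CSF1, and LPS is known to stop that division.

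The siRNA target fell with siEhd1 in both states, without overlap between libraries. The unit of the levels is CPM, a gene's count set against its library's total after TMM scaling. After LPS, Ehd1 (chr19:6276725-6300096, plus strand of GRCm38) had 282, 319 and 304 CPM with siEhd1, against 678, 631 and 550.2 CPM with siControl, and in resting cells 33.6, 31.98 and 28.9 CPM with siEhd1, against 53.3, 52.0 and 54.4 CPM with siControl. The log2 fold changes of siEhd1 over siControl were -1.04 after LPS and -0.76 in resting cells, so Ehd1 RNA was reduced and not absent. Library totals ran from 18572725 to 22545272 counts. The 12 macrophage markers all reached 5 CPM or more at rest with siControl. Lymphocyte markers summed to less than 1 CPM in every library, as did markers of erythroid or mast cells. Among the defining markers, Cd3e, Nkg7, Ncr1, Gzma, Hba-a1, Hbb-bt and Mcpt8 were at 0 in all libraries. Whether replicates are separate animals or cultures is not stated, so a p-value here measures the spread between libraries alone, and that spread may be technical. Untransfected cells are not analysed here. Resting and LPS-treated libraries are in different tables, and any difference in handling between those cannot be told apart from LPS.

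The promoters of the members were searched for the letters that E2F factors are known to bind. RefSeq promoter windows of 300 bases (250 before to 50 after each annotated start, GRCm38.p6) were at hand for 40 of the 50 members. A window was counted as an E2F match if it held TTTGGCGC, TTTCGCGC, TTTGCCGC or TTTCCCGC on either strand. Some genes have several annotated starts, and a gene was counted as matched if any of its windows was. Such a match was present in 18 of 40 members (45.0%, 95% Wilson interval 30.7 to 60.2%), in 4.71% of the 9316 genes past the count filter that had a window and in 2.60% of all 27025 genes with a window. The CCAAT box (CCAAT) was present in 62.5% of the members (95% Wilson interval 47.0 to 75.8%), 43.1% of the genes past the filter and 41.1% of all genes. The cell cycle homology region (CHR, as TTTGAA or TTCGAA, which is linked to late cell cycle genes) was present in 25.0% of the members, 16.4% of the genes past the filter and 21.7% of all genes, and the members' interval of 14.2 to 40.2% holds both of these shares. Counted by window, an E2F match was present in 18 of the members' 47 windows (38.3%), against 3.89% of the windows of genes past the filter. A match is a run of letters in this window, not a measured binding site. With the letters read on the gene's own strand alone, the share of members with an E2F match was 20%, against 2.52% of the genes past the filter.

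The 4 whole windows shown first belong to a helicase subunit and a checkpoint adaptor that were higher with siEhd1 in both states, and to the 2 members with a negative log2 fold change in resting cells, the clamp loader subunit Rfc3 and the transcription factor E2f2. All are written 5′ to 3′ on the gene's strand, with the E2F words in capitals.

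Mcm7 (chr5:138171834-138172133, minus strand): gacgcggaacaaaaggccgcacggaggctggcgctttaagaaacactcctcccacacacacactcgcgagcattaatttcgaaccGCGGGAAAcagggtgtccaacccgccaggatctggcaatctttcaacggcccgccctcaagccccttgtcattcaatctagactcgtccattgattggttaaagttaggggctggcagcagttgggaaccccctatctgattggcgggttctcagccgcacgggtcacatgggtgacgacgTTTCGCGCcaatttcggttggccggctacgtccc

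Clspn (chr4:126556730-126557029, plus strand): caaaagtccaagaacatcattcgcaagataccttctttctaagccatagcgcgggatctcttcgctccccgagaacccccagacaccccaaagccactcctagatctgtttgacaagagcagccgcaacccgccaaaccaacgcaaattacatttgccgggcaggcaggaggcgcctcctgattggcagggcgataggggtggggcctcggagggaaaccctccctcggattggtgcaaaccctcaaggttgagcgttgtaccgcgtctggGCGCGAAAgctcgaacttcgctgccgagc

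Rfc3 (chr5:151651159-151651458, minus strand): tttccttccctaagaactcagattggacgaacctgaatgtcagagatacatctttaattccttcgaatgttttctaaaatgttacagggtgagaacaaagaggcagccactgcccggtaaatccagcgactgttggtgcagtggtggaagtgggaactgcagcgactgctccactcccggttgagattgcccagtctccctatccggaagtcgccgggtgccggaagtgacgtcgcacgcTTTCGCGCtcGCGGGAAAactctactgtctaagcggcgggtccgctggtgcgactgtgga

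E2f2 (chr4:136172024-136172323, plus strand): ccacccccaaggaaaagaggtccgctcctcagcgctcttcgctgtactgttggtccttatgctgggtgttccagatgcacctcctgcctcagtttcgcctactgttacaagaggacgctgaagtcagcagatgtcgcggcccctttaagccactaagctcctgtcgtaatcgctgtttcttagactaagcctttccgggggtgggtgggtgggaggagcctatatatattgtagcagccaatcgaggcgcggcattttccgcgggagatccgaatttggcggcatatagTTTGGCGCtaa

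Stretches of 60 bases around the match are shown for 4 further members, of which E2f7, Uhrf1 and Cdc6 had among the largest fold changes in resting cells and the polymerase delta catalytic subunit Pold1 a small one.

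E2f7 (chr10:110745215-110745274, plus strand): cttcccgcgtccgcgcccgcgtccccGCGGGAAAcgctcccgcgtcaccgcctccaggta

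Uhrf1 (chr17:56304102-56304161, plus strand): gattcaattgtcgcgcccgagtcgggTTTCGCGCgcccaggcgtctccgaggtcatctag

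Cdc6 (chr11:98907987-98908046, plus strand): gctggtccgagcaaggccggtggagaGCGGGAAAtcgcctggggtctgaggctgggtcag

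Pold1 (chr7:44548766-44548825, minus strand): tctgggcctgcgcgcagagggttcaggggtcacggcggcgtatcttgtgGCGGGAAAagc

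In these 8 windows the match nearest to the annotated start lay at positions from -198 (E2f7) to 40 (Pold1 and E2f2), counted from the start. Rfc3 has a pair of matches that are 2 bases apart and directly at its start. Mcm7 has 1 match far upstream and 1 just downstream of the start shown. Mcm7, Uhrf1 and E2f2 each have another annotated start, whose window held no match.

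Summed over the 50 genes, the level was highest in resting siEhd1 cells and lowest in LPS-treated siControl cells. A sum is weighted towards members with high levels, such as Pcna. The median over the members of log2 CPM relative to the resting siControl mean overlapped between the siControl groups. It was -0.11 to 0.03 in LPS-treated and -0.22 to 0.13 in resting siControl libraries. The sum was 944, 944 and 925 CPM in the LPS-treated siEhd1 libraries, against 724, 779 and 769 CPM in the LPS-treated siControl libraries. In resting cells it was 1439, 1478 and 1262 CPM with siEhd1, against 799.8, 911 and 981 CPM with siControl. Within each state, the siEhd1 and siControl libraries did not overlap, and the ratio of the group means was 1.24 after LPS and 1.55 in resting cells. The members made up 0.138 to 0.158% of the counts of a resting siEhd1 library and 0.0854 to 0.103% of those of a resting siControl library. In bulk RNA, more cells in S phase and more of this RNA in each cell cannot be told apart.

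**Figure D1:**
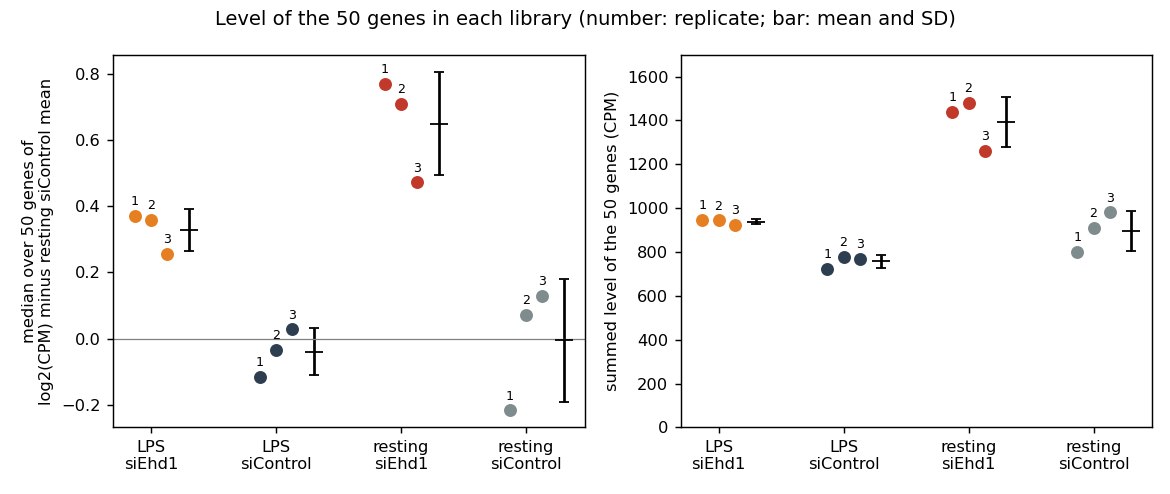
Level of the 50 genes in each library, by group, with the replicate number above each point and the mean and SD (n = 3) as bars. The left panel plots the median over the genes of the log2 CPM relative to the resting siControl mean, and the right panel the summed CPM, which lies between 1262 and 1478 in resting siEhd1 libraries and between 799.8 and 981 in resting siControl libraries.

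In the resting state, 1 library of each group stood below its replicates across the members. Replicate 1 of the resting siControl group was the lowest of its group for 45 of 50 members, against 35.9% of all genes tested, and replicate 3 of the resting siEhd1 group was the lowest for 47 of 50 members, against 35.1% of all genes. These libraries differed from the others of their group by a chi-square per degree of freedom of 6.78 to 11.4 over the members, where the remaining pair of each group differed by 1.58 (siControl) and 1.15 (siEhd1). Within these groups the members thus varied together and by more than counting error. Over all genes the same pairs differed by 5.1 to 8.2, and the remaining pairs by 4.0 (siControl) and 5.6 (siEhd1). Variation beyond counting error was therefore not particular to the members. Results in resting cells are therefore also given without both libraries, an alternative chosen after the data were seen.

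With siEhd1 in resting cells, 41 of the 50 genes rose, 0 fell and 9 were not called. A gene was called where edgeR's quasi-likelihood test gave a Benjamini-Hochberg adjusted p under 0.05 over all genes tested. By that rule 14.0% of all genes were called higher and 14.2% lower. The median log2 fold change was 0.64 over the members and -0.02 over all genes, and 48 of 50 members had a positive one. In 45 members every siEhd1 library lay above every siControl library, and in 0 members below. The share of all genes separated in this way is not given here, so that count is a description alone. No member had a negative change at an unadjusted p under 0.05 in edgeR, and DESeq2 and limma-voom called 0 lower as well. The count called higher was 37 to 43 when each library was left out in turn, and 35 of the 41 calls were kept under each of the 22 alternatives tried.

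**Figure D2:**
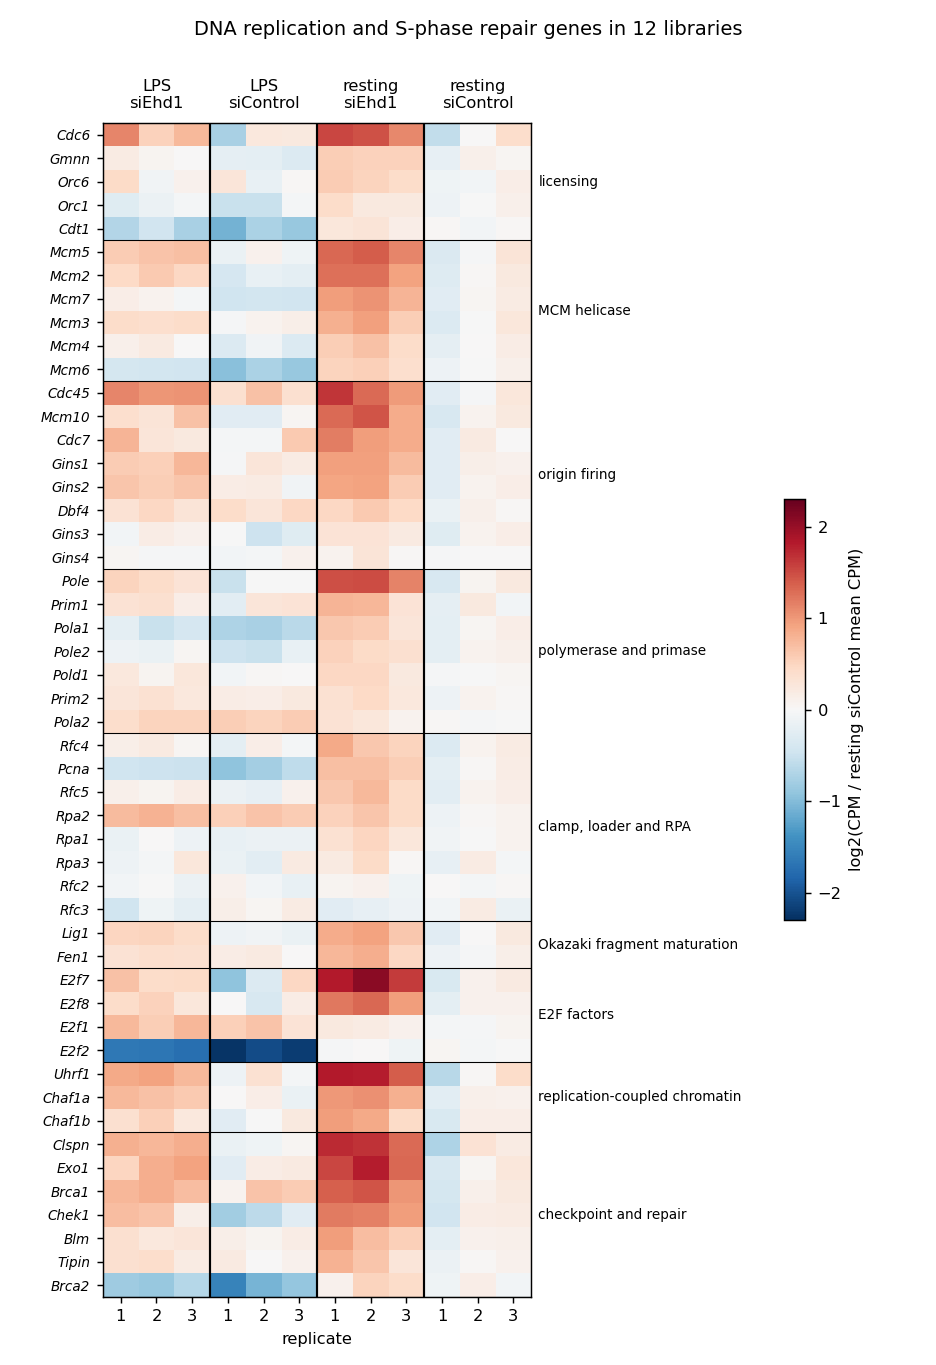
Level of each of the 50 genes in each of the 12 libraries, as log2 of the CPM over the resting siControl mean CPM, grouped by role. Red is above and blue below that mean; the resting siEhd1 columns are red in nearly all rows, and E2f2 is the darkest blue in the LPS-treated columns.

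Of the 5 licensing genes, 4 rose in resting siEhd1 cells and Orc1 was not called (0.29). Cdc6, the ATPase that brings the helicase to the origin, had 9.05, 8.63 and 6.73 CPM with siEhd1, against 2.11, 3.16 and 4.12 CPM with siControl (log2 fold change 1.38, SE 0.25, adjusted p = 0.0011). Gmnn encodes geminin, which binds CDT1 and blocks a second round of licensing, and had 19.7, 19.2 and 19.3 CPM with siEhd1, against 11.8, 14.5 and 13.8 CPM with siControl (log2 fold change 0.54, SE 0.08, adjusted p = 5.6e-05). In both genes every siEhd1 library lay above every siControl library, and the siEhd1 libraries of Gmnn differed among themselves by less than 1 CPM. Orc6, a subunit of the origin recognition complex, rose by less (log2 fold change 0.51, SE 0.14, adjusted p = 0.0093), and the call was lost without both libraries that stood apart (log2 fold change 0.50, adjusted p = 0.053). Cdt1, the loading factor itself, had the smallest called change of the group (log2 fold change 0.24, SE 0.08, adjusted p = 0.028), and the call was lost without siControl replicate 1 or 2 or siEhd1 replicate 1 or 2, with adjusted p up to 0.11 and log2 fold changes from 0.21 to 0.29 over all alternatives.

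All 6 subunits of the MCM helicase, the ring that unwinds the parental DNA, rose in resting siEhd1 cells, with log2 fold changes from 0.49 (Mcm6) to 1.28 (Mcm5). Mcm2 had 35.7, 35.8 and 28.2 CPM with siEhd1, against 12.1, 15.1 and 17.3 CPM with siControl (log2 fold change 1.16, SE 0.11, adjusted p = 1.6e-06). For Mcm7 the levels were 44.8, 47.1 and 39.4 CPM with siEhd1 and 19.2, 23.6 and 26.1 CPM with siControl (log2 fold change 0.93, SE 0.09, adjusted p = 4.5e-07). The lowest siEhd1 library of either gene lay above the highest siControl library by more than 10 CPM. The remaining subunits Mcm3 (0.78) and Mcm4 (0.56) lay between these values.

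Of the 8 genes of origin firing, 6 rose in resting siEhd1 cells. Cdc45, which joins the MCM ring to make it an active helicase, had 10.2, 7.94 and 6.39 CPM with siEhd1, against 2.69, 3.16 and 3.86 CPM with siControl (log2 fold change 1.33, SE 0.16, adjusted p = 4.9e-06). Gins2, a subunit of the GINS complex that completes this helicase, had 13.2, 13.5 and 10.6 CPM with siEhd1, against 5.94, 7.499 and 7.86 CPM with siControl (log2 fold change 0.81, SE 0.12, adjusted p = 2.7e-05). The groups did not overlap in either gene. Mcm10, which helps to activate the assembled helicase, rose as well (log2 fold change 1.22, SE 0.17, adjusted p = 5.4e-05), as did Gins1 (0.88). The kinase gene Cdc7 (0.998) and the gene of its activating subunit, Dbf4, both rose. Dbf4 had 12.04, 13.1 and 11.9 CPM with siEhd1, against 7.79, 9.34 and 8.82 CPM with siControl (log2 fold change 0.51, SE 0.09, adjusted p = 0.00037). The GINS subunits were not alike: Gins4 had 20.3, 23.6 and 19.6 CPM with siEhd1, against 19.1, 19.5 and 19.4 CPM with siControl, a difference that was not called (log2 fold change 0.13, SE 0.08, adjusted p = 0.2), nor was that of Gins3 (0.27).

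All 7 polymerase and primase genes rose in resting siEhd1 cells, though 1 of them by far the most. Pole, the catalytic subunit of the leading-strand polymerase epsilon, had 20.8, 21.01 and 16.2 CPM with siEhd1, against 5.72, 7.76 and 8.69 CPM with siControl (log2 fold change 1.39, SE 0.15, adjusted p = 3.8e-06). Pold1, the catalytic subunit of polymerase delta, which copies the lagging strand, had 30.9, 30.8 and 25.9 CPM with siEhd1, against 21.7, 22.01 and 22.8 CPM with siControl (log2 fold change 0.40, SE 0.07, adjusted p = 0.00048). The groups did not overlap in either gene, but the difference was a small part of the level in Pold1 and exceeded the level of the siControl libraries in Pole. Pola2, a subunit of the polymerase alpha complex that starts each new strand, had 20.4, 19.4 and 17.2 CPM with siEhd1, against 16.6, 15.9 and 16.2 CPM with siControl (log2 fold change 0.23, SE 0.07, adjusted p = 0.024). The other 4 genes had log2 fold changes of 0.51 (Pola1, the catalytic subunit of polymerase alpha), 0.63 and 0.35 (the primase subunits Prim1 and Prim2) and 0.45 (Pole2). Calls were lost without 1 library for Pola2 (siControl 2 or 3 or siEhd1 1 or 2, adjusted p up to 0.13 over the alternatives), Pole2 (siControl 1 or siEhd1 1 or 2, and also with the DESeq2 Wald test, with no filter and without both libraries that stood apart, up to 0.16), Prim1 (siControl 1 or siEhd1 1, up to 0.054) and Prim2 (siControl 1, up to 0.054). Their log2 fold changes then lay between 0.17 and 0.77 over all alternatives.

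The clamp, clamp loader and RPA genes were split, with 5 of 8 called higher and 3 not called in resting siEhd1 cells. Pcna, the sliding clamp, had 315, 318 and 289 CPM with siEhd1, against 167, 201 and 220.1 CPM with siControl (log2 fold change 0.65, SE 0.09, adjusted p = 0.00015). Rpa2, a subunit of the protein that covers single-stranded DNA, had 15.9, 17.04 and 14.9 CPM with siEhd1, against 10.1, 11.2 and 11.5 CPM with siControl (log2 fold change 0.54, SE 0.08, adjusted p = 4.1e-05). Both genes were higher in every siEhd1 library. Rpa1, the large subunit of the same complex, rose by 0.37 on the log2 scale (adjusted p = 0.00022), while Rpa3 was not called (log2 fold change 0.23, SE 0.18, adjusted p = 0.36).

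The 4 measured small subunits of the clamp loader, RFC, differed from each other. Rfc4 (log2 fold change 0.68, SE 0.15, adjusted p = 0.0021) and Rfc5 (log2 fold change 0.61, SE 0.10, adjusted p = 0.00015) rose. Rfc2 had 29.0, 29.7 and 26.1 CPM with siEhd1, against 28.2, 27.2 and 28.3 CPM with siControl, levels that overlapped (log2 fold change 0.02, SE 0.07, adjusted p = 0.87). For Rfc3 the levels were 6.88, 7.26 and 7.62 CPM with siEhd1, against 7.88, 9.47 and 7.46 CPM with siControl (log2 fold change -0.19, SE 0.11, adjusted p = 0.23). Rfc3 was 1 of the 2 members with a negative log2 fold change, which did not pass the test.

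Both genes of Okazaki fragment maturation rose in resting siEhd1 cells. Fen1, the nuclease that cuts the flap at the end of each fragment, had 47.5, 50.05 and 38.9 CPM with siEhd1, against 25.8, 27.3 and 30.7 CPM with siControl (log2 fold change 0.70, SE 0.09, adjusted p = 6.2e-06). Lig1, the ligase that seals the nick, rose to a like degree (log2 fold change 0.80, SE 0.10, adjusted p = 1.1e-05).

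Of the 4 E2F genes, the 2 that encode repressors rose and the 2 that encode activators were not called. E2f7 and E2f8 encode the atypical E2F proteins, which repress E2F targets and are themselves such targets. E2f7 had 6.96, 8.28 and 6.05 CPM with siEhd1, against 1.54, 2.10 and 2.28 CPM with siControl, the largest log2 fold change of all 50 members (log2 fold change 1.84, SE 0.22, adjusted p = 6.8e-06). For E2f8 the levels were 21.5, 23.2 and 18.1 CPM with siEhd1 and 7.92, 9.91 and 9.96 CPM with siControl (log2 fold change 1.17, SE 0.12, adjusted p = 1.6e-06). No siEhd1 library of these genes came near a siControl library. The activator E2f1 had 55.5, 54.0 and 50.9 CPM with siEhd1, against 46.3, 46.7 and 49.5 CPM with siControl, a small difference without overlap that did not pass the test (log2 fold change 0.17, SE 0.08, adjusted p = 0.097). E2f2 had 30.4, 31.3 and 29.1 CPM with siEhd1 and 32.1, 30.1 and 30.7 CPM with siControl, and these overlapped (log2 fold change -0.03, SE 0.06, adjusted p = 0.74).

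All 3 genes of replication-coupled chromatin rose in resting siEhd1 cells. Uhrf1 encodes the protein that recognises hemimethylated DNA behind the fork and brings the maintenance methyltransferase there, and had 46.5, 45.5 and 34.3 CPM with siEhd1, against 8.36, 13.3 and 17.6 CPM with siControl (log2 fold change 1.69, SE 0.23, adjusted p = 0.00069). Chaf1a, the large subunit of the histone chaperone CAF-1, had 30.9, 32.03 and 27.3 CPM with siEhd1, against 13.1, 16.7 and 16.6 CPM with siControl (log2 fold change 0.96, SE 0.09, adjusted p = 2.5e-07). Groups did not overlap in either gene, and the spread among siControl libraries was wide in Uhrf1 and narrow in Chaf1a. Chaf1b, the middle subunit of CAF-1, rose too (0.78).

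Of the 7 checkpoint and repair genes, 6 rose in resting siEhd1 cells. Clspn encodes claspin, the adaptor through which ATR activates the kinase CHK1 at stalled forks, and had 24.4, 23.6 and 18.5 CPM with siEhd1, against 4.58, 9.34 and 8.47 CPM with siControl (log2 fold change 1.57, SE 0.19, adjusted p = 6e-05). Exo1, an exonuclease of mismatch repair and of DNA end resection, had 3.93, 4.74 and 3.41 CPM with siEhd1, against 1.06, 1.40 and 1.62 CPM with siControl (log2 fold change 1.56, SE 0.20, adjusted p = 6.6e-06). For Brca1, which acts in homologous recombination, the levels were 18.6, 19.5 and 14.5 CPM with siEhd1 and 5.37, 7.72 and 8.34 CPM with siControl (log2 fold change 1.29, SE 0.17, adjusted p = 5.3e-05). In these genes the lowest siEhd1 library was above the highest siControl library, and the lowest siControl library was replicate 1 each time. Chek1, the gene of CHK1 (1.10), Blm, a helicase that dissolves recombination intermediates (0.75), and Tipin, which protects the fork together with TIMELESS (0.59), rose, and Brca2, which acts in homologous recombination, was not called (log2 fold change 0.36, SE 0.14, adjusted p = 0.057).

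Markers of other states moved in the same libraries, where 14.0% of all genes were called higher and 14.2% lower with siEhd1. Of the 12 macrophage markers, 8 fell and 0 rose in resting siEhd1 cells, where their summed level was 30460 to 32130 CPM, against 36480 to 37870 CPM in resting siControl cells; the Fc receptor gene Fcgr1 fell most (-0.80). Of 10 markers of haematopoietic progenitors, 3 passed the filter. Kit, a growth factor receptor of progenitors, rose (log2 fold change 0.89, SE 0.28, adjusted p = 0.022). The 2 others were not called, and the lowest log2 fold change of the 3 was -0.20. The summed level of the 10 was 2.26 to 2.82 CPM with siEhd1, against 1.89 to 2.41 CPM with siControl, and these overlapped. Ms4a3 was at 0 in all libraries. Neutrophil and dendritic cell markers, 3 of each tested, had 0 called in resting siEhd1 cells. Their median log2 fold changes were -0.31 and -0.04. Of 9 stromal or endothelial markers, 7 passed the filter and 2 fell, with a summed level of 15.5 to 22.04 CPM with siEhd1, against 28.3 to 29.3 CPM with siControl. Their part in the result was not tested. Without both libraries that stood apart, 39 of the 50 members were called higher and 0 lower.

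After LPS, 15 of the 50 genes rose with siEhd1, Rfc3 fell and 34 were not called, where 4.44% of all genes were called higher and 4.10% lower. The median log2 fold change was 0.31 over the members and -0.005 over all genes, and 45 members had a positive one. In 32 members every siEhd1 library lay above every siControl library and in 2 (Rfc3, and Pola2 by a margin below the printed digits) below. Here too the share of all genes so separated is not given, and the shares called are a different measure. Without LPS-treated siEhd1 replicate 1 the count called higher was 8, and it was 8 to 21 over the libraries left out in turn. The macrophage markers summed to 45750 to 47970 CPM with siEhd1 and 42980 to 49720 CPM with siControl after LPS, with 1 higher and 1 lower. The neutrophil markers summed to 77.6 to 100.3 CPM with siEhd1, against 43.3 to 73.9 CPM with siControl, without overlap; 3 of the 8 passed the filter, with positive log2 fold changes (median 0.59) and 0 called by edgeR, 1 having an unadjusted p under 0.05. The stromal or endothelial markers summed to 40.3 to 50.6 CPM with siEhd1 and 34.1 to 53.4 CPM with siControl, with 1 of 7 tested called higher. The progenitor markers summed to less than 1 CPM in every library of both groups. The part of these markers in the result was not tested. Of the 16 calls, 8 were kept under each of 22 alternatives, and these were Mcm2, Mcm5, Mcm6, Mcm7, Gins2, Lig1, Chaf1a and E2f2.

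**Figure D3:**
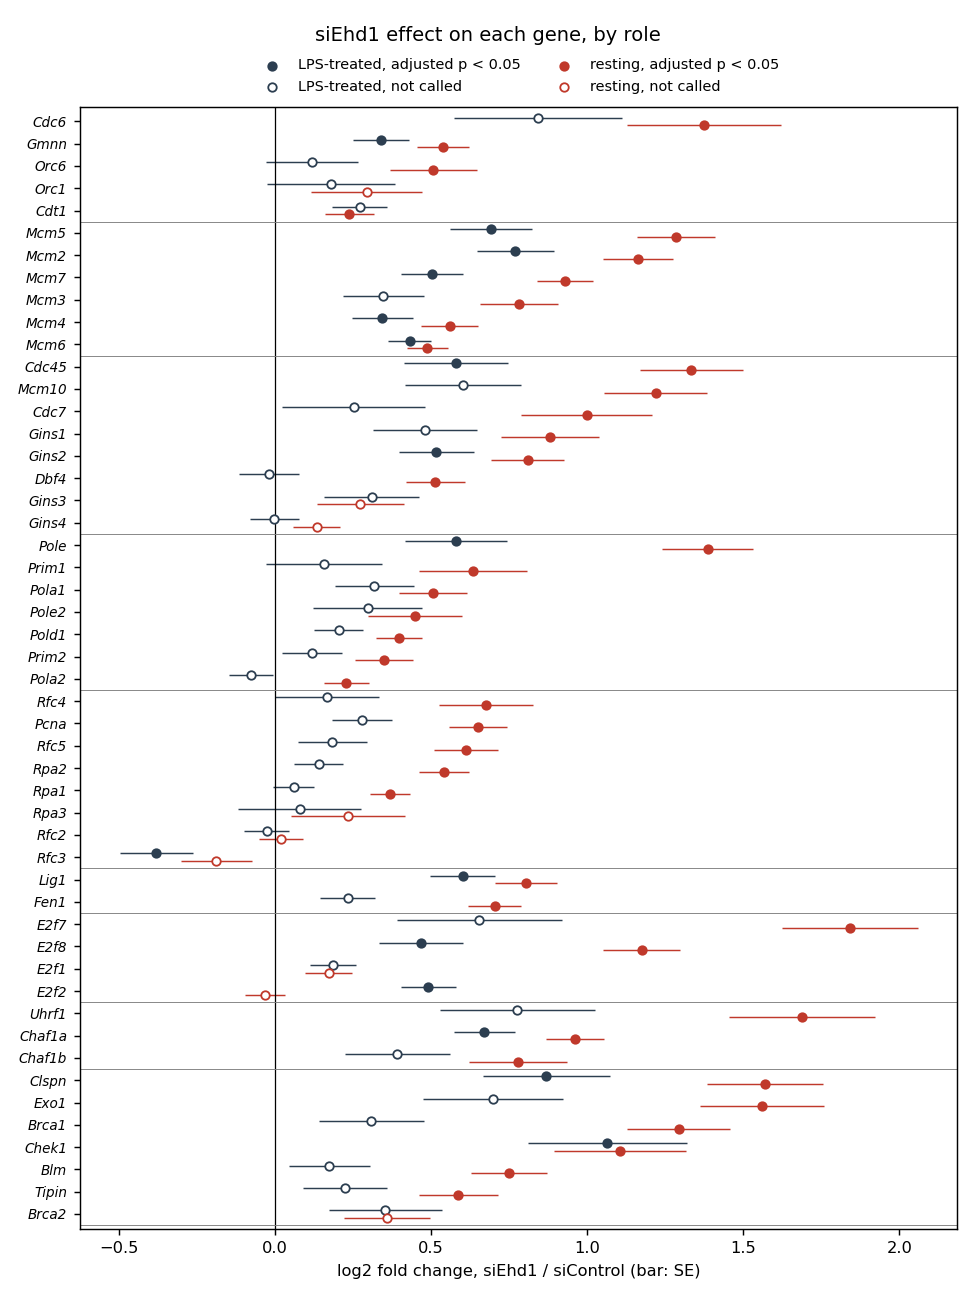
Log2 fold change of siEhd1 over siControl for each of the 50 genes in LPS-treated cells (dark) and resting cells (red), grouped by role, with SE as bars; filled points passed the test. Most genes lie right of 0 in both states, and the resting point is farther right in 46 of 50.

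Of the 6 helicase genes, 5 rose with siEhd1 after LPS. Mcm2 had 20.3, 22.4 and 20.7 CPM with siEhd1, against 11.3, 13.1 and 12.8 CPM with siControl (log2 fold change 0.77, SE 0.12, adjusted p = 9e-04). For Mcm7 the levels were 25.4, 24.4 and 22.3 CPM with siEhd1 and 16.7, 17.2 and 16.9 CPM with siControl (log2 fold change 0.50, SE 0.10, adjusted p = 0.003). The groups were apart in both. Mcm5 (0.69), Mcm6 (0.43) and Mcm4 (0.34) rose as well, and Mcm3 was not called (log2 fold change 0.35, SE 0.13, adjusted p = 0.13). The Mcm4 call was lost without 1 of 6 libraries (resting siControl 2, resting siEhd1 1, LPS-treated siControl 1 or 3, LPS-treated siEhd1 1 or 2; adjusted p up to 0.14).

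In the licensing and firing genes, 3 of 13 were called. Gmnn had 15.3, 14.0 and 13.4 CPM with siEhd1, against 11.6, 11.4 and 10.8 CPM with siControl (log2 fold change 0.34, SE 0.09, adjusted p = 0.02). Cdc6 had 6.78, 4.55 and 5.28 CPM with siEhd1, against 1.87, 3.72 and 3.66 CPM with siControl, and was not called although the groups did not overlap (log2 fold change 0.84, SE 0.27, adjusted p = 0.078). Cdc45 had 7.08, 6.54 and 6.60 CPM with siEhd1, against 4.19, 5.15 and 4.18 CPM with siControl (log2 fold change 0.58, SE 0.17, adjusted p = 0.034). Of these genes Cdc6 showed the widest spread between siControl libraries. Gins2 had 11.01, 10.6 and 11.01 CPM with siEhd1, against 7.99, 8.08 and 6.71 CPM with siControl (log2 fold change 0.52, SE 0.12, adjusted p = 0.0093). Gins4 had 19.9, 18.8 and 18.99 CPM with siEhd1 and 18.6, 18.7 and 20.6 CPM with siControl (log2 fold change -0.00, SE 0.08, adjusted p = 0.99), and Dbf4 had 10.96, 12.01 and 10.6 CPM with siEhd1 and 11.6, 10.46 and 11.99 CPM with siControl (log2 fold change -0.02, SE 0.10, adjusted p = 0.94); both overlapped. The calls of Gmnn and Cdc45 were lost without LPS-treated siEhd1 replicate 1, among others (Gmnn: also LPS-treated siControl 2 or 3; Cdc45: also LPS-treated siControl 1 or 3 or siEhd1 2 or 3, and with limma-voom), with adjusted p up to 0.12 and 0.13.

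At the polymerases, clamp and ligase, 2 of 17 genes rose and 1 fell after LPS. Pole had 10.6, 9.88 and 9.18 CPM with siEhd1, against 5.18, 7.33 and 7.32 CPM with siControl (log2 fold change 0.58, SE 0.16, adjusted p = 0.04), and Lig1 rose (log2 fold change 0.60, SE 0.10, adjusted p = 0.0013). Pold1 had 26.3, 23.3 and 26.7 CPM with siEhd1 and 21.3, 22.6 and 22.3 CPM with siControl (log2 fold change 0.20, SE 0.08, adjusted p = 0.12). Pcna, with 143, 141 and 139 CPM with siEhd1 and 103, 114 and 132 CPM with siControl, did not overlap between groups, and was not called (log2 fold change 0.28, SE 0.10, adjusted p = 0.099). The Pole call was lost without 1 of 6 libraries (resting siControl 2, LPS-treated siControl 1 or 2, or any LPS-treated siEhd1 library), with adjusted p up to 0.15. Fen1 had 35.2, 36.7 and 35.9 CPM with siEhd1 and 31.3, 32.3 and 28.2 CPM with siControl (log2 fold change 0.23, SE 0.09, adjusted p = 0.12). Rpa2 had 18.1, 19.02 and 17.6 CPM with siEhd1 and 16.1, 17.3 and 16.4 CPM with siControl (log2 fold change 0.14, SE 0.08, adjusted p = 0.33). Neither was called, and the Fen1 and Rpa2 groups were apart by less than the range within siControl. The levels of Pola2 were 21.6, 23.2 and 23.1 CPM with siEhd1 and 24.02, 23.2 and 24.4 CPM with siControl (log2 fold change -0.08, SE 0.07, adjusted p = 0.58), and those of Rfc2 26.6, 27.5 and 25.5 CPM with siEhd1 and 29.7, 26.6 and 24.9 CPM with siControl (log2 fold change -0.03, SE 0.07, adjusted p = 0.88).

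Rfc3 was the only member called lower. It had 5.99, 7.70 and 7.05 CPM with siEhd1, against 9.12, 8.52 and 9.37 CPM with siControl (log2 fold change -0.38, SE 0.12, adjusted p = 0.048). The call lay just under the threshold and was lost under 16 of 22 alternatives, among them each other tool or scaling tried, with log2 fold changes from -0.47 to -0.29 and adjusted p from 0.037 to 0.24.

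Both E2f2 and E2f8 rose with siEhd1 after LPS. E2f2 had 9.88, 9.83 and 9.35 CPM with siEhd1, against 6.46, 7.43 and 6.80 CPM with siControl (log2 fold change 0.49, SE 0.09, adjusted p = 0.0011). For E2f8 the levels were 12.4, 13.5 and 11.1 CPM with siEhd1 and 9.27, 7.19 and 10.4 CPM with siControl (log2 fold change 0.47, SE 0.14, adjusted p = 0.04). The E2f2 groups were far apart relative to their spread, while those of E2f8 were separated by less than the range within siControl, and the E2f8 call was lost without 1 of 6 libraries (resting siControl 2, resting siEhd1 1, LPS-treated siControl 1 or 2, LPS-treated siEhd1 1 or 2; adjusted p up to 0.16) and with limma-voom. E2f7 had 3.14, 2.66 and 2.696 CPM with siEhd1 and 1.04, 1.59 and 2.76 CPM with siControl, which overlapped (log2 fold change 0.65, SE 0.26, adjusted p = 0.15). E2f1 had 79.4, 70.5 and 80.9 CPM with siEhd1 and 69.0, 74.8 and 59.0 CPM with siControl, which also overlapped (log2 fold change 0.19, SE 0.07, adjusted p = 0.14).

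Among chromatin, checkpoint and repair genes, Chaf1a, Clspn and Chek1 rose after LPS. Chaf1a had 26.04, 24.5 and 23.5 CPM with siEhd1, against 15.6, 17.1 and 13.8 CPM with siControl (log2 fold change 0.67, SE 0.10, adjusted p = 0.00017). For Clspn the levels were 13.1, 12.6 and 13.3 CPM with siEhd1 and 6.71, 6.94 and 7.71 CPM with siControl (log2 fold change 0.87, SE 0.20, adjusted p = 0.02). Chek1 rose by 1.06 on the log2 scale (adjusted p = 0.011), from counts as low as 14 in a siControl library. The Chek1 call was lost without LPS-treated siEhd1 replicate 1 (adjusted p = 0.067), and the Clspn call without any 1 of the 6 libraries from LPS-treated cells (and with no filter; adjusted p at most 0.085, log2 fold changes 0.83 to 0.93). Uhrf1 had 24.03, 24.9 and 21.9 CPM with siEhd1, against 11.99, 16.8 and 12.7 CPM with siControl (log2 fold change 0.78, SE 0.25, adjusted p = 0.1). Exo1 had 1.92, 2.42 and 2.58 CPM with siEhd1, against 1.13, 1.54 and 1.57 CPM with siControl (log2 fold change 0.70, SE 0.22, adjusted p = 0.059). Brca1 had 12.1, 12.8 and 11.6 CPM with siEhd1, against 7.596, 11.3 and 10.7 CPM with siControl (log2 fold change 0.31, SE 0.17, adjusted p = 0.33). These 3 genes were higher in every siEhd1 library and did not pass the test.

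The genes called higher after LPS were nearly all among those called in resting cells. Of the 15 genes called higher after LPS, 14 were also called higher in the resting state, and these 14 were part of the 41 called there. E2f2 was called higher after LPS only, 27 genes in resting cells only, and 7 members (Orc1, Gins3, Gins4, Rfc2, Rpa3, E2f1 and Brca2) in neither. Across the 50 members the log2 fold changes of the states, which share no library but come from 1 fit, had a Pearson correlation of 0.783 (Spearman 0.757), against a Pearson correlation of 0.391 over all 12164 genes, given as a description. The log2 fold change was lower after LPS than in resting cells in 46 of 50 members.

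Tested as such, the siEhd1 effect differed between the states for 7 members: the effect on E2f2 was higher after LPS than in resting cells, and those on Dbf4, Brca1, Fen1, E2f8, Rpa2 and Pole were lower, where 3.12% of all genes were called higher and 2.93% lower. The median difference was -0.38 over the members and 0.002 over all genes. For E2f2 the effects were 0.49 after LPS and -0.03 in resting cells (difference 0.52, SE 0.11, adjusted p = 0.0052). Those on Dbf4 were -0.02 after LPS and 0.51 in resting cells (difference -0.53, SE 0.13, adjusted p = 0.02), and those on Brca1 0.31 after LPS and 1.29 in resting cells (difference -0.99, SE 0.24, adjusted p = 0.025). The E2f2 difference was kept under each of 21 alternatives. For Fen1 the difference was -0.47 (adjusted p = 0.026), for E2f8 -0.71 (adjusted p = 0.028), for Rpa2 -0.40 (adjusted p = 0.037) and for Pole -0.81 (adjusted p = 0.042). The largest difference in size, that of E2f7, was not called (difference -1.19, SE 0.35, adjusted p = 0.054). The 6 lower calls depended on single libraries: the count was 0 without resting siEhd1 replicate 2 or LPS-treated siEhd1 replicate 1 or 3, 1 without resting siControl replicate 1 or resting siEhd1 replicate 1, 2 without LPS-treated siControl replicate 2 or 3, 3 without resting siControl replicate 2, 13 without resting siControl replicate 3 and 14 without resting siEhd1 replicate 3.

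**Figure D4:**
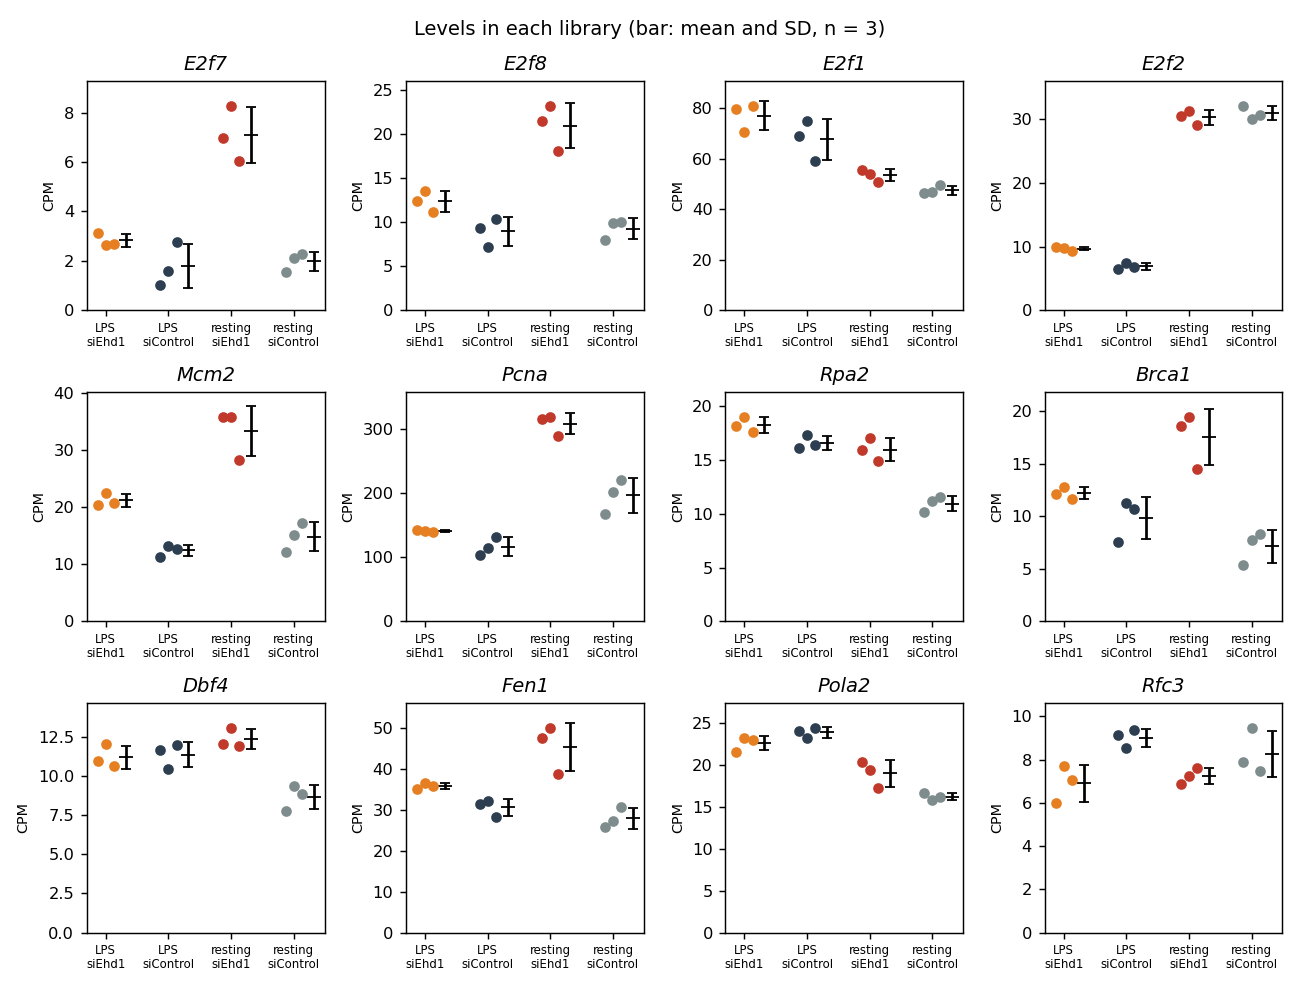
CPM in each library for 12 of the genes, by group, with the mean and SD (n = 3) as bars; each axis starts at 0. E2f2 is split by LPS and E2f7 by siEhd1 in resting cells, and the siEhd1 and siControl points of Dbf4 overlap after LPS and not in resting cells.

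With LPS, 15 of the 50 members were called in siControl cells, in both directions, and 38 in siEhd1 cells, nearly all lower. The resting siEhd1 libraries also enter the siEhd1 comparison in resting cells, so these are not separate results. The test of the difference between the LPS effects is the one given above. It called 1 member higher and 6 lower, and 0 to 14 lower when a library was left out. In siControl cells 6 members rose and 9 fell with LPS, where 34.8% of all genes were called higher and 34.0% lower, and the median was -0.04 over the members and -0.01 over all genes. In siEhd1 cells 3 rose and 35 fell, where 32.9% of all genes were called higher and 34.0% lower, and the median was -0.45 over the members and -0.02 over all genes. The summed level was 944, 944 and 925 CPM in LPS-treated siEhd1 libraries, against 1439, 1478 and 1262 CPM in resting siEhd1 libraries, and 724, 779 and 769 CPM in LPS-treated siControl libraries, against 799.8, 911 and 981 CPM in resting siControl libraries, so the mean was 0.673 times that of resting cells with siEhd1 and 0.844 times with siControl. With upper-quartile scaling, which moved the median of all genes by -0.10 in siControl and -0.11 in siEhd1 cells, the split was 4 higher and 13 lower in siControl cells and 1 higher and 43 lower in siEhd1 cells. The count called lower in siControl cells was 16 without resting siControl replicate 1, and that in siEhd1 cells 27 to 38 over the libraries left out in turn.

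Markers of several cell types moved with LPS under both siRNAs, as did most genes. Of all genes tested, 32.9% were called higher and 34.0% lower in siEhd1 cells. In siControl cells these shares were 34.8% and 34.0%. The 3 tested progenitor markers all fell, with a median log2 fold change of -1.96 in siEhd1 cells and -2.69 in siControl cells, and the 10 listed summed to 0.442 to 0.803 CPM in LPS-treated siEhd1 libraries, against 2.26 to 2.82 CPM in resting siEhd1 libraries. Of the 3 tested neutrophil markers, 3 rose in siEhd1 cells and 2 in siControl cells, with sums of 77.6 to 100.3 CPM after LPS, against 14.3 to 21.4 CPM at rest, in siEhd1 cells and of 43.3 to 73.9 CPM after LPS, against 20.4 to 22.6 CPM at rest, in siControl cells. Of the 7 tested stromal or endothelial markers, 5 rose in siEhd1 cells and 4 in siControl cells, and 0 fell. Of the 12 macrophage markers, 7 rose and 2 fell in siEhd1 cells, and 6 rose and 3 fell in siControl cells. Of the 3 tested dendritic cell markers, 1 rose and 2 fell under each siRNA. The part of these markers in the result was not tested.

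**Figure D5:**
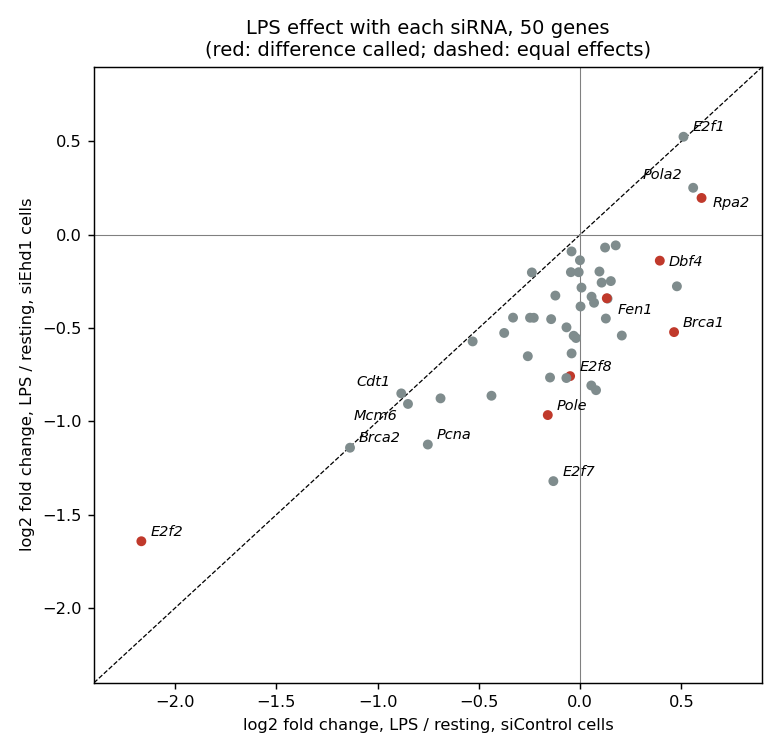
Log2 fold change of LPS-treated over resting cells for the 50 genes, in siControl cells (horizontal axis) and siEhd1 cells (vertical axis), with the dashed line at equal effects and the 7 genes whose difference was called in red. Most points lie below the line (46 of 50), and E2f2 lies above it with the lowest values on both axes.

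Of the E2F genes, E2f2 fell and E2f1 rose with LPS under both siRNAs. E2f2 had 6.46, 7.43 and 6.80 CPM in LPS-treated siControl cells, against 32.1, 30.1 and 30.7 CPM in resting siControl cells (log2 fold change -2.17, SE 0.08, adjusted p = 6.7e-16), and 9.88, 9.83 and 9.35 CPM in LPS-treated siEhd1 cells, against 30.4, 31.3 and 29.1 CPM in resting siEhd1 cells (log2 fold change -1.64, SE 0.07, adjusted p = 3.5e-14). It was the largest fall of the 50 members under either siRNA. E2f1, whose protein acts on the same sites, moved the other way, with 69.0, 74.8 and 59.0 CPM in LPS-treated siControl cells, against 46.3, 46.7 and 49.5 CPM in resting siControl cells (log2 fold change 0.51, SE 0.08, adjusted p = 5.7e-06), and a log2 fold change of 0.52 in siEhd1 cells (adjusted p = 3.6e-06). The repressors E2f7 (-1.32) and E2f8 (-0.76) fell with LPS in siEhd1 cells and were not called in siControl cells (-0.13 and -0.05), although E2f7 was called lower there without LPS-treated siControl 3 (adjusted p = 0.05 in edgeR after rounding). These calls for E2f1 and E2f2 under both siRNAs, and for E2f7 and E2f8 in siEhd1 cells, were kept under each of 21 alternatives.

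In siControl cells, the genes that fell with LPS came from licensing (Cdt1 -0.88 and Gmnn -0.25), the helicase (Mcm6 -0.85, Mcm7 -0.44 and Mcm4 -0.23), polymerase alpha (Pola1 -0.69), the clamp (Pcna -0.75) and recombination (Brca2 -1.14), beside E2f2. Pcna had 103, 114 and 132 CPM in LPS-treated siControl cells, against 167, 201 and 220.1 CPM in resting siControl cells (adjusted p = 6.6e-06). The genes that rose were Rpa2, Pola2, E2f1, Cdc45, Brca1 and Dbf4. Rpa2 had 16.1, 17.3 and 16.4 CPM in LPS-treated siControl cells, against 10.1, 11.2 and 11.5 CPM in resting siControl cells (log2 fold change 0.60, SE 0.08, adjusted p = 1.6e-06). For Pola2 the levels were 24.02, 23.2 and 24.4 CPM after LPS and 16.6, 15.9 and 16.2 CPM at rest (log2 fold change 0.56, SE 0.07, adjusted p = 7.8e-07). Every LPS-treated library of both lay above every resting one, while Pola1, the partner of Pola2 in polymerase alpha, went down. Cdc45 (0.48), Brca1 (0.46) and Dbf4 (0.39) rose by less. Of the 15 calls, 11 were kept under each of 21 alternatives; that of Gmnn was lost without resting siControl 2 or 3 or LPS-treated siControl 3 (adjusted p up to 0.11), that of Mcm4 under 11 alternatives (up to 0.25), that of Brca1 without resting siControl 1 or LPS-treated siControl 2 or 3, with upper-quartile scaling and with no filter (up to 0.12), and that of Cdc45 without resting siControl 1 or 2 or LPS-treated siControl 2 and with upper-quartile scaling (up to 0.11).

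In siEhd1 cells every licensing and helicase gene fell with LPS (5 of 5 and 6 of 6), as did Fen1 and Lig1 and all 3 chromatin genes, with 6 of 7 checkpoint and repair genes. Mcm2 had 20.3, 22.4 and 20.7 CPM in LPS-treated siEhd1 cells, against 35.7, 35.8 and 28.2 CPM in resting siEhd1 cells (log2 fold change -0.65, SE 0.11, adjusted p = 7.1e-05), and Pole 10.6, 9.88 and 9.18 CPM, against 20.8, 21.01 and 16.2 CPM (log2 fold change -0.97, SE 0.14, adjusted p = 1.7e-05). Neither Mcm2 (log2 fold change -0.26, SE 0.13, adjusted p = 0.08) nor Pole (-0.16) was called for LPS in siControl cells, but both were called lower there without both resting libraries that stood apart (Mcm2 adjusted p = 0.0012, Pole adjusted p = 0.049 in edgeR), and Mcm2 also without resting siControl 1, without resting siEhd1 3 and with upper-quartile scaling. Of the firing genes 2 of 8 fell, Mcm10 (-0.77) and Cdc7 (-0.54). Only E2f1, Pola2 and Rpa2 rose, and 28 of the 38 calls were kept under each of 21 alternatives. Among the 10 others were 3 of the 5 licensing calls: that of Orc1 (adjusted p = 0.042) was lost under 11 alternatives, that of Cdc6 (adjusted p = 0.049) under 9 and that of Orc6 under 5, with adjusted p up to 0.14, 0.17 and 0.22 in edgeR or the other tools. The calls of Mcm3 and Chaf1b were lost under 5 alternatives each, that of Cdc7 under 4 and those of Chek1 and Pold1 under 3 each. The calls of Pola2 and Rpa2 were lost under upper-quartile scaling, and that of Rpa2 under 6 others. Where the LPS effects under each siRNA are set side by side, the test of their difference is the one given above for the siEhd1 effects.

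Relative to length, the members differ widely in level. Dividing the mean CPM by the summed exon length (GENCODE M21) gave 81.7 CPM per kb for Pcna in resting siControl cells and 0.162 for Exo1, the highest and the lowest member. Within the MCM ring the level per kb in resting siControl cells ran from 2.13 (Mcm2) to 16.4 (Mcm6). With siEhd1 it ran from 4.78 to 23 in the same subunits. Among the E2F genes it was 15 CPM per kb for E2f1, 6.35 for E2f2, 1.70 for E2f8 and 0.219 for E2f7 in resting siControl cells, so the genes that rose with siEhd1 were those with the lower level. In the GINS complex the level was 14.3 CPM per kb for Gins4 and 1.59 for Gins3, which were not called with siEhd1 in resting cells, and 1.40 for Gins1 and 1.73 for Gins2, which rose. The exon sum counts exons of every annotated transcript, and the transcripts used by these cells may be shorter.

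Members with and without an E2F match both rose in resting siEhd1 cells. In resting cells the 18 members with a match had a median log2 fold change of 0.50 (range -0.19 to 1.84) and 13 rose, and the 22 members with a window but no match had a median of 0.69 (range 0.17 to 1.33) and 20 rose. The 10 members without a window, of which 8 rose, are in neither group. Of all genes tested, 14.0% were called higher there. After LPS the medians were 0.39 and 0.21. Rfc3, with 2 matches at its start, and E2f2, with 1, were the members with negative values in resting cells. With LPS in siControl cells, 0 members with a match rose and 6 fell, and 6 members without one rose and 1 fell. Of all genes, 34.8% were called higher and 34.0% lower in that comparison. With LPS in siEhd1 cells, 0 members with a match rose and 16 fell, and 3 members without one rose and 15 fell. The shares of all genes there were 32.9% higher and 34.0% lower. These groups were set after the values were known and carry no test.

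Other replication genes, 73 of them in 4 lists, were examined beside the members. These lists too were chosen with earlier results of these data known, so their counts are a description and not an independent check. In resting siEhd1 cells 38 of 73 rose, 0 fell and 35 were not called, with a median log2 fold change of 0.28 and 60 positive values. Of all genes tested, 14% were called higher and 14.2% lower there. After LPS 12 rose, 1 fell and 60 were not called, with a median of 0.10 and 49 positive values, against 4.44% of all genes called higher and 4.1% lower. Of 23 other genes of the fork checkpoint and S-phase repair, 12 rose in resting cells. Fancd2 and Bard1, whose products act in the Fanconi anaemia pathway and as the partner of BRCA1, had the smallest p. Fancd2 had 9.99, 12 and 10.7 CPM with siEhd1, against 3.61, 3.77 and 4.48 CPM with siControl (log2 fold change 1.461, SE 0.12, adjusted p = 2.4e-08). For Bard1 the levels were 7.05, 6.83 and 5.62 CPM with siEhd1 and 1.85, 2.19 and 2.06 CPM with siControl (log2 fold change 1.67, SE 0.15, adjusted p = 7.1e-08).

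Of 25 other genes of the replication machinery, 12 rose in resting siEhd1 cells, among them Chtf18 (log2 fold change 1.06, SE 0.12, adjusted p = 2.4e-06), a subunit of an alternative clamp loader, Ticrr (log2 fold change 1.36, SE 0.18, adjusted p = 8.5e-06), which works with TOPBP1 in origin firing, and Wdhd1 (0.73), which ties polymerase alpha to the helicase. Of 12 other chromatin genes, 8 rose, among them the histone chaperone gene Asf1b (log2 fold change 1.19, SE 0.10, adjusted p = 2.4e-08), the remodeller gene Hells (log2 fold change 1.31, SE 0.16, adjusted p = 2.9e-06) and Rbbp7 (0.40), a histone-binding protein. Of 13 other E2F, DP and pocket protein genes, 6 rose, among them Rbl1, which encodes the pocket protein p107 (log2 fold change 0.59, SE 0.07, adjusted p = 3.4e-06), Tfdp1, the dimer partner of E2F proteins (log2 fold change 0.44, SE 0.06, adjusted p = 1.5e-05), and Lin9 (0.40). After LPS 7 of the repair genes, 3 of the machinery genes, 2 of the E2F and pocket protein genes and 0 of the chromatin genes rose, and E2f6 fell (log2 fold change -0.28, SE 0.09, adjusted p = 0.048). The siEhd1 effect was lower after LPS than in resting cells for 13 of the 73 genes and higher for 0. Of all genes tested, 2.93% were called lower and 3.12% higher in that comparison. Asf1b had the smallest p of the 73 (difference -0.89, SE 0.14, adjusted p = 6e-04).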

How the data were processed

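Raw counts by gene symbol are what the authors deposited, with resting and LPS-treated libraries in a table each. Per the submitters' processing notes, mm10 was the build, with R 4.4.2, DESeq2 1.46.0, featureCounts 2.20.0, STAR 2.7.6a, cutadapt, Trim Galore 0.6.3 and FastQC 0.10.1 among the tools. Not given in the sources used here are the annotation, the strand setting, the handling of multi-mapping reads, the LPS dose and duration and the siRNA sequences. Columns were matched to samples by the names in the labels; 0 columns were unused.

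The 50 members, the other lists and the tests were chosen with earlier results of these data known. The deposited counts entered edgeR 4.0.16 (limma 3.58.1, R 4.3.3). filterByExpr by group (minimum count 10, minimum total 15) kept 12164 genes. TMM factors, robust dispersions and 1 quasi-likelihood fit over all 12 libraries (8 residual degrees of freedom) gave 5 contrasts, each adjusted by Benjamini-Hochberg over all genes with a threshold of 0.05. The SE of a log2 fold change is its size over the square root of F. The fit was tested on simulated counts. No libraries of a group were identical, and all pairs differed beyond sampling noise, with chi-square values of 3.00 to 23.6 per degree of freedom.

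Values in every library are given for 25 members: the 2 of each role with the smallest p in resting cells (1 for Okazaki fragment maturation), the 5 largest and the 5 smallest log2 fold changes there, up to 6 called in the difference and those called against most of their role; from each other list up to 3 called genes with the smallest p are named. Genes outside this rule (Fcgr1, Kit, E2f6) were named after their values were seen. Alternatives were DESeq2 size factors, upper-quartile factors, the DESeq2 1.42.0 Wald test, limma-voom, no filter, a filter of 50 counts in 3 libraries, fits of the compared groups alone, the replicate number as a block, and leaving out each library or, chosen after seeing the data, both resting libraries that stood apart. Gene coordinates are those of GENCODE M21 on GRCm38, the assembly called mm10, and promoter windows come from RefSeq. Some items of the lists are not reported here.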

Additional observations from a re-analysis of the deposited data

Results flagged for a closer look

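The siEhd1 effect on 7 of the 50 genes differed between LPS-treated and resting cells by the test of the difference itself, and that difference is what marks them here. The difference, as the log2 fold change of siEhd1 over siControl after LPS minus that in resting cells, was positive for E2f2 (0.52, edgeR adjusted p = 0.0052), which was kept under each of 21 alternatives. It was negative for Dbf4 (-0.53, edgeR adjusted p = 0.02), Brca1 (-0.99, edgeR adjusted p = 0.025), Fen1 (-0.47, edgeR adjusted p = 0.026), E2f8 (-0.71, edgeR adjusted p = 0.028), Rpa2 (-0.40, edgeR adjusted p = 0.037) and Pole (-0.81, edgeR adjusted p = 0.042). Each of these 6 calls was lost when some single libraries were left out, with adjusted p from 0.0011 (Brca1) to 0.14 (Pole) over their alternatives. The highest over its alternatives was 0.07 for Dbf4, 0.071 for Brca1, 0.079 for Fen1 and for E2f8, and 0.12 for Rpa2.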

How the results depend on the processing

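In resting cells the number of members called higher with siEhd1 stayed between 37 and 43 under every alternative, with 0 called lower. After LPS, 8 to 21 were called higher when a library was left out. The member called lower there (Rfc3) became 0 with DESeq2 size factors, upper-quartile factors, the DESeq2 Wald test, limma-voom, the compared groups alone, either replicate block and without both resting libraries that stood apart, and 0 to 1 when a library was left out. For the difference of the siEhd1 effects, the count called lower was 1 with the replicate block within each state, against 6 without it, and 0 to 14 when a library was left out. For LPS in siControl cells the count called lower was 7 to 16 when a library was left out and 16 without both resting libraries. For LPS in siEhd1 cells 1 member was called higher with upper-quartile factors.

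Whether replicate numbers pair the libraries is not stated, and the values do not settle it. Correlations of same-numbered libraries' deviations ran from -0.167 to 0.251, and those of differently numbered ones from -0.198 to 0.274. Some libraries matched their own number best and others did not. With 3 libraries per group, such correlations cannot exclude a pairing. With the replicate number as a block over all 12 libraries, 42 members were called higher with siEhd1 in resting cells and 13 after LPS. With the block within each state, the calls of Pole2 in resting cells, of Cdc45, Clspn, E2f8, Pole and Rfc3 after LPS and of Brca1, E2f8, Fen1, Pole and Rpa2 in the difference were lost; with the block over all libraries, those of E2f8 and Pole in both the LPS-treated state and the difference, of Rfc3 after LPS, and of Orc1 and Cdc6 for LPS in siEhd1 cells.

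Changes of sign were seen only in values not called in the fit as reported: under at least 1 alternative they touched 2 of 50 members for siEhd1 in resting cells, 6 for siEhd1 after LPS, 9 for the difference, 20 for LPS in siControl cells and 1 for LPS in siEhd1 cells. Gins4 after LPS was 0.00548 with DESeq2 size factors, 0.00501 with upper-quartile factors, 0.00548 with the Wald test and 0.00314 with the compared groups alone, and -0.0297 to 0.0521 when a library was left out. Likewise Rfc2 ran from -0.0169 to 0.0748 in resting cells and from -0.0808 to 0.0455 after LPS, and after LPS Orc6 from -0.0447 to 0.242, Dbf4 from -0.0760 to 0.0256, Prim1 from -0.00106 to 0.256 and Rpa3 from -0.0368 to 0.234. With LPS in siControl cells E2f7 ran from -0.597 to 0.145 and E2f8 from -0.177 to 0.0875. E2f2 in resting cells was 0.0220 without both resting libraries that stood apart. The cause of these changes was not tested.

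The share of member promoters with an E2F match was 37.5% in windows from 150 bases before the start and 20% on the gene's own strand alone, where fewer places are searched. Of the members, 8 had a library under 40 counts (Chek1, E2f7, Exo1, Orc1, Cdc7, Cdc6, Pole2 and Rpa3), which limits their precision; Cdc6 had the largest SE in both siEhd1 contrasts.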
